A study of Rattus norvegicus with 6 samples.

Results

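Pax, Sox and T-box (Tbx) genes encode 3 families of transcription factors, and 35 of them had an entry among the 22427 genes listed with an H3K27me3 peak in neonatal rat cardiomyocytes. They were taken as every entry, in any of the 4 lists, whose gene symbol is Pax, Sox or Tbx followed by a number, with case ignored. They comprise 9 Pax, 14 Sox and 12 Tbx genes, each with 1 Ensembl gene ID. The cells were primary cardiomyocytes of newborn Sprague Dawley rats, grown with 10% serum, and no allele or transgene is named. They received 5 mM α-ketoglutarate (α-KG) for 24 h, with 2 H3K27me3 libraries (α-KG 1 and α-KG 2), or phosphate-buffered saline for the same time, with 2 libraries (control 1 and control 2). The labels do not say whether the 2 libraries of a group came from separate cultures or how many animals were pooled, so their spread may be technical.

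H3K27me3, a trimethylated lysine in the tail of histone H3, is placed by Polycomb repressive complex 2 and marks genes held silent, above all developmental regulators outside the lineage in which they act. JmjC histone demethylases that remove it use α-KG as a cosubstrate. Pax proteins bind DNA through a paired domain, Sox proteins through a high mobility group (HMG) box and Tbx proteins through a T-box. Several Tbx genes pattern the heart, many Sox genes set vascular, cartilage or neural crest fates, and Pax genes mostly act in other organs.

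Each deposited value is a listing: a gene either has a peak in a library or does not. Peak height, position and read depth are not in the lists, so an unlisted gene may be free of the mark or merely below detection, and a listed gene need not be silent. The lists held 18120 genes in α-KG 1, 19181 in α-KG 2, 17245 in control 1 and 18442 in control 2. In bulk chromatin, the mark on fewer alleles and the mark in fewer cells cannot be told apart. Of the 6 cardiomyocyte marker entries, 3 were listed in α-KG 1, 3 in α-KG 2, 3 in control 1 and 4 in control 2, and only Tnnt2 and Actn2 were in all 4. The calcium release channel gene Ryr2 was in neither α-KG library and both controls (lost). It was 1 of the 3 cardiomyocyte marker entries in both controls, and of all genes in both controls 3.22% were lost. Myh7 was in α-KG 2 alone. Tnni3 was in α-KG 1 alone and Nppa in control 2 alone. Markers of other cells were also listed in all 4 libraries. These were 4 of 6 entries for fibroblasts (66.7%), 3 of 5 for endothelium (60%) and 2 of 3 for smooth muscle and pericytes (66.7%). They were also 3 of 3 for immune cells and 3 of 4 for Schwann cells and neurons, against 62.8% of all listed genes. The markers Myh6, Col1a2, Acta2, Tagln, Cd68 and Cd3e had no entry and are not in the marker counts. The neuronal tubulin gene Tubb3 was in both α-KG libraries and no control (gained). It was 1 of the 4 Schwann and neural entries in both α-KG libraries, and of all genes in both 4.48% were gained. No other marker entry was lost or gained, and the part of cell composition in the results was not tested. These listings do not show which cells were present.

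Nearly all members were listed with a peak both with and without α-KG. Of the 35 members, 32 were in α-KG 1, 34 in α-KG 2, 33 in control 1 and 34 in control 2. The mean was 33 ± 1.41 members for α-KG and 33.5 ± 0.707 for control (SD, n = 2 each). The difference of -0.5 members was smaller than the spread between libraries of a group, with p = 1 by an exact two-sided permutation test, in which 2 against 2 libraries cannot give less than 0.333. In all 4 libraries, 32 of 35 members (91.4%) were listed, against 62.8% of all listed genes and 63.1% of those with a gene symbol. Membership required an entry in at least 1 list, so 6 of the 41 RefSeq genes that match the naming rule are left out. The members that varied were Tbx22, Tbx10 and Pax4.

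**Figure D1:**
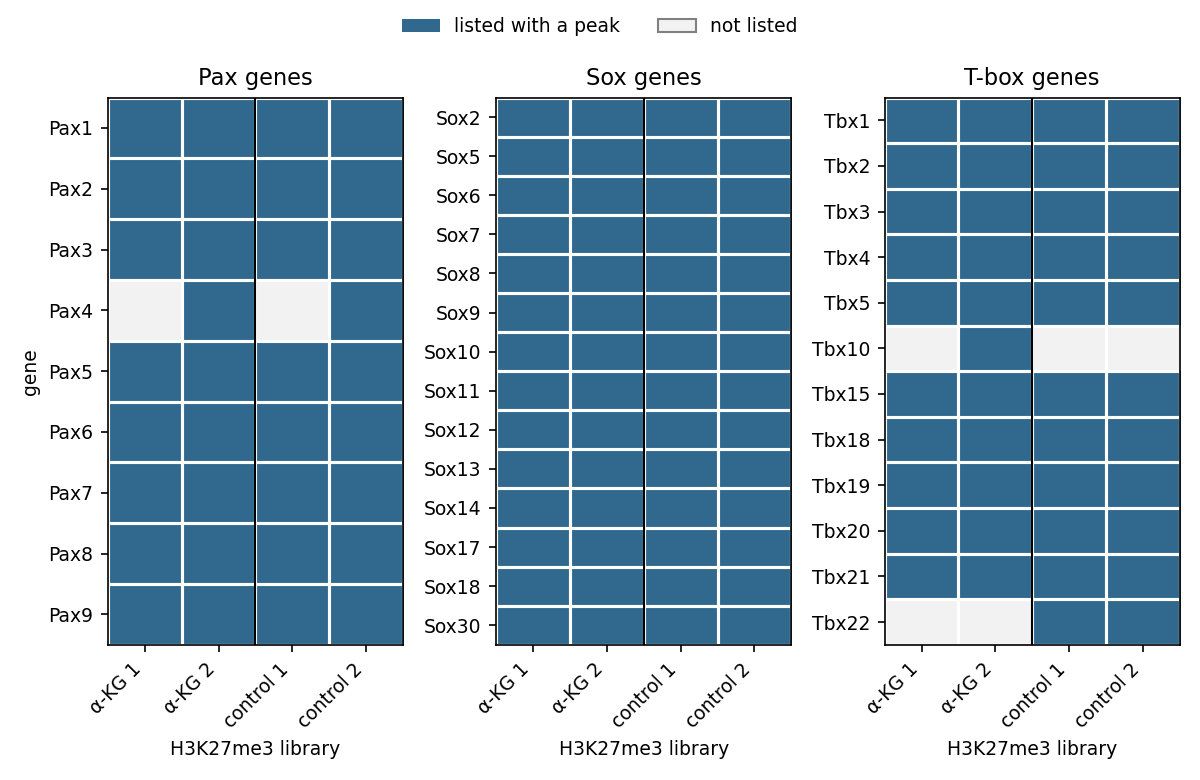
Listing of the 35 Pax, Sox and T-box genes (rows) in the α-KG and control libraries (columns), with filled cells for genes with a peak and pale cells for genes not listed. Of the 35 rows, 32 are filled throughout; Tbx22 is filled in the 2 control columns, Tbx10 in α-KG 2 and Pax4 in α-KG 2 and control 2.

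Among the Tbx genes that shape the heart, every entry was listed in both groups. Tbx5, which drives chamber and conduction system genes and is mutated in human Holt-Oram syndrome, was listed in α-KG 1, α-KG 2, control 1 and control 2. The same 4 libraries listed Tbx20, a factor of the heart chambers and valves, and Tbx1, which acts in the pharyngeal region and the second heart field. They also listed Tbx2 and Tbx3, repressors that keep the atrioventricular canal and conduction tissue from taking a chamber fate, and Tbx18, a gene of the epicardium and sinus horns. Tbx4 of the hindlimb, Tbx15 of skeleton and skin, Tbx19 of pituitary corticotrophs and Tbx21, the T-bet gene of type 1 helper T cells, completed the 10 of 12 Tbx genes found in all 4. All 4 members of the Tbx2 subfamily (Tbx2, Tbx3, Tbx4 and Tbx5) were among them. The Tbx1 subfamily (Tbx1, Tbx10, Tbx15, Tbx18, Tbx20 and Tbx22) had 4 of 6, and it held both Tbx genes that varied.

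Tbx22 was the 1 member that divided by treatment. This gene, mutated in human X-linked cleft palate, was listed in neither α-KG 1 nor α-KG 2, and in both control 1 and control 2. It was thus 1 of the 33 members in both controls (3.03%), against 3.22% of all genes in both controls that neither α-KG library listed. With all 4 libraries, the members' share was therefore near that of all genes. Without 1 library the share of all genes was higher, at 8.55% without α-KG 1, 6.72% without α-KG 2, 5.56% without control 1 and 5.24% without control 2. The members' share then stayed at 2.94% to 3.03%, with Tbx22 as the 1 lost member. The listings of the members fix this outcome, so it is no test of them against all genes. No member showed the reverse pattern (0 of 32 in both α-KG libraries), against 4.48% of all genes in both α-KG libraries. With 2 against 2 libraries an exact permutation test of a single gene cannot give p below 0.333, so none was run.

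Tbx10 was listed in α-KG 2 and in none of α-KG 1, control 1 and control 2. A listing in α-KG 2 alone was found for 6.96% of all listed genes, and α-KG 2 has the longest list of the 4. Its part in the Tbx10 listing was not tested. Pax4, which acts in the formation of insulin-producing cells, was listed in α-KG 2 and control 2 and in neither α-KG 1 nor control 1. The 2 libraries that listed Pax4 thus share a replicate number and not a treatment, a pattern seen in 2.4% of all listed genes.

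Promoter sequences show how the varying genes compare with close relatives in CpG pairs, the sites whose dense clusters (CpG islands) Polycomb complexes often occupy in mammals. RefSeq windows of assembly GRCr8, running from 250 bases before to 50 after the gene start, were matched by symbol for 25 of the 35 members (71.4%). Under 80% of members have a window, so a comparison over all members would be void and none was made. Tbx22, Tbx10 and Pax4 are shown because they varied, and Tbx20, Tbx15 and Pax6 as relatives of the same subgroups listed in all 4 libraries. Capitals mark each CpG pair, and every sequence reads 5′ to 3′ on the strand of its gene.
Tbx22: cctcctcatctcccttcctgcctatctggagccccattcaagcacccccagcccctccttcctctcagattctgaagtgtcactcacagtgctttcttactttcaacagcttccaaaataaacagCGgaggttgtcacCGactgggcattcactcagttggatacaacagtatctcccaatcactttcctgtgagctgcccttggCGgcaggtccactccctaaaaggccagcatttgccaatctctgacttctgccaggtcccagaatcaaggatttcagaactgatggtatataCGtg
Tbx10: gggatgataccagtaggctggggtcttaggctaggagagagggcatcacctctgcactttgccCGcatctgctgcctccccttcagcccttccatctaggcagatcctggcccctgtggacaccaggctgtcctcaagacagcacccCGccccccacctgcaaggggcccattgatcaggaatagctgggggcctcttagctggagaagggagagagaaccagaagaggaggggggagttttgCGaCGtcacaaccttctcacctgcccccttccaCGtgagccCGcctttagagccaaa
Tbx20: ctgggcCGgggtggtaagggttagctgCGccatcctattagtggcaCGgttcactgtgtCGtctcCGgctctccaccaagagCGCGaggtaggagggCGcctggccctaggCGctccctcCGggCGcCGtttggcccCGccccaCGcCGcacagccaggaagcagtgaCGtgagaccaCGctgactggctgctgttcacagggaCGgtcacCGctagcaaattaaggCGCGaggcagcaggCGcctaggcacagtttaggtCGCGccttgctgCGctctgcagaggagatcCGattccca
Tbx15: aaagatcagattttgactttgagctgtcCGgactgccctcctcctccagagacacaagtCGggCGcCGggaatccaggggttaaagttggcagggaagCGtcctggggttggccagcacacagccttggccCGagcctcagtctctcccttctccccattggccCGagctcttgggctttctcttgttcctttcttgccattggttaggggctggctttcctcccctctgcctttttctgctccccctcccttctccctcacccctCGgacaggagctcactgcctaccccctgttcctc
Pax4: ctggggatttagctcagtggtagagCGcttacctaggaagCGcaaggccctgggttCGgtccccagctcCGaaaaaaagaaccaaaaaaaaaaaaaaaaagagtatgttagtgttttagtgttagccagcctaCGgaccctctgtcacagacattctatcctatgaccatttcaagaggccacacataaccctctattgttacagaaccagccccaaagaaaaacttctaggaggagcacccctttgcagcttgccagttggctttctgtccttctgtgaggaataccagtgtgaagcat
Pax6: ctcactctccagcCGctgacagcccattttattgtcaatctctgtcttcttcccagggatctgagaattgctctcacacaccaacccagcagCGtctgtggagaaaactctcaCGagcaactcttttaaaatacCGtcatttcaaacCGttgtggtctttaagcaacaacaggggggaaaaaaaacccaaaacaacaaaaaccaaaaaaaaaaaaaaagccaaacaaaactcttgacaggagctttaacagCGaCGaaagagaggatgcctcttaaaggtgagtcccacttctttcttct

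The Tbx22 window (GRCr8 chrX:76833564-76833863, plus strand) holds 4 CpG pairs and the Tbx10 window (chr1:210714742-210715041, plus strand) 6. The median over 33469 windows was 7, with a middle range from 3 to 19 between the quartiles. The Tbx20 window (chr8:31533960-31534259, minus strand) holds 26, more than in 84.8% of windows, whereas that of Tbx15 (chr2:189265123-189265422, plus strand) holds 8. Tbx18 has 13, and Tbx1 has 12 at 1 annotated start and 24 at the other. Both varying members of the Tbx1 subfamily thus had fewer CpG pairs than the 4 relatives in all 4 libraries, by as little as 2 for Tbx10 against Tbx15.

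Divided by the number expected from base composition, the CpG pairs gave 0.227 for Tbx22 and 0.221 for Tbx10. The ratio was 0.317 for Tbx15, 0.604 for Tbx18, 0.812 for Tbx20, and 0.455 and 0.648 for Tbx1. Pax4 (chr4:58028809-58029108, minus strand) had 5 CpG pairs and a ratio of 0.307. Pax6 (chr3:112590346-112590645, plus strand) had 7 and 0.532. These are descriptions of 8 genes, picked by listing and subgroup, and they place no peak at a promoter. Other members in all 4 libraries were not compared, so a link between CpG pairs and listing was not tested.

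**Figure D2:**
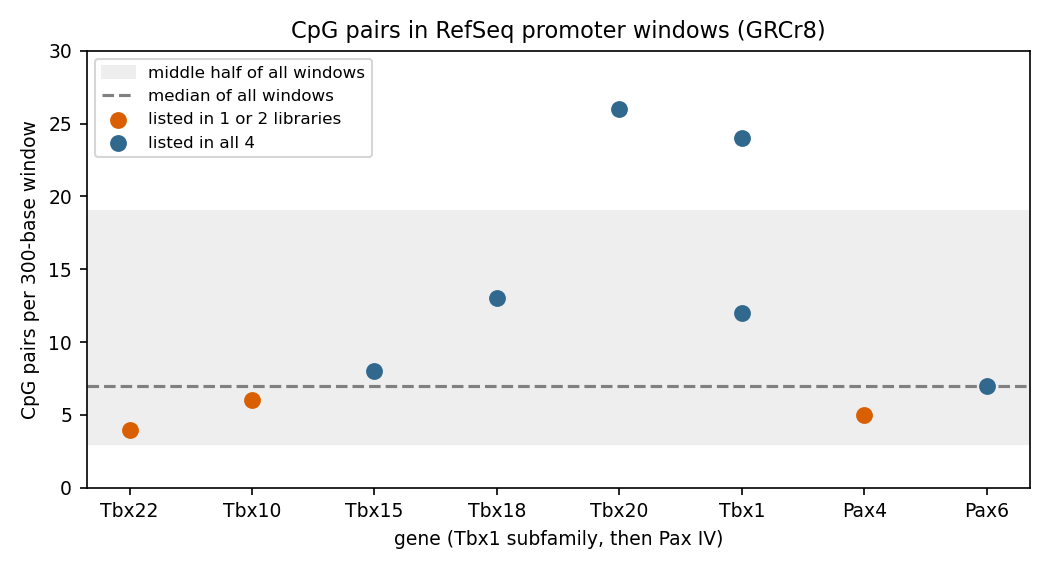
Points give the number of CpG pairs in each 300-base promoter window of the Tbx1 subfamily and of Pax IV, coloured by listing; the dashed line is the median of all windows (7) and the band runs from the lower to the upper quartile (3 to 19). Tbx22, Tbx10 and Pax4, listed in 1 or 2 libraries, lie at 4, 6 and 5, below their relatives.

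Every Sox entry, 14 of 14, was in all 4 libraries. They include Sox17, Sox18 and Sox7 (SoxF), which act in endothelial and endocardial development, and Sox9, Sox8 and Sox10 (SoxE). Sox9 directs cartilage and also acts in heart valve formation, and Sox10 is a regulator of neural crest and glia. Sox11 and Sox12 (SoxC) act in progenitors of many tissues, and Sox5, Sox6 and Sox13 (SoxD) encode proteins with no transactivation domain of their own. Sox2, which maintains pluripotent and neural progenitor cells, Sox14, of interneurons, and Sox30, of developing sperm, were likewise listed in α-KG 1, α-KG 2, control 1 and control 2.

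Of the Pax genes, 8 of 9 were in all 4 libraries, Pax4 being the exception. Pax3, needed in the neural crest that reaches the outflow tract and in muscle progenitors, was listed in all 4, as was its relative Pax7, the gene of muscle satellite cells. So were Pax1 and Pax9 (sclerotome and pharyngeal pouches), Pax2 (kidney), Pax8 (thyroid), Pax5 (B cells) and Pax6 (eye, brain and pancreatic islets). Pax6 and Pax4 form the subgroup Pax IV.

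Libraries were also compared pair by pair, counting the genes listed in only 1 of the pair. The 2 α-KG libraries differed at 2 members (Pax4 and Tbx10, 5.71%) and at 21.1% of all genes. The 2 controls differed at 1 member (Pax4, 2.86%) and at 16.4% of all genes. Between treatments, α-KG 1 differed from control 1 at 1 member (2.86%, against 19.0% of all genes) and from control 2 at 2 (5.71%, against 17.5%). α-KG 2 differed from control 1 at 3 members (8.57%, against 26.4% of all genes) and from control 2 at 2 (5.71%, against 22.6%). Pairs of different treatment thus differed at 1 to 3 members, a range that takes in both pairs of like treatment. The pairs are not independent, since each library enters 3 of them, and they were not tested.

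Other families of developmental factors also had most of their entries in all 4 libraries, as the plot of shares by gene class shows. Other homeobox entries had 193 of 221 (87.3%) in all 4, fork head entries 32 of 37 (86.5%) and basic helix-loop-helix (bHLH) entries 92 of 110 (83.6%). The 77 HMG-box entries outside the naming rule had 50 in all 4 (64.9%), and of the 45 among them with a gene symbol 36 were (80%). The 32 without a symbol may include Sox genes. Entries with a Krüppel-associated box (KRAB), found in a large family of zinc finger repressors, had 88 of 171 (51.5%). These shares are given side by side without a test.

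**Figure D3:**
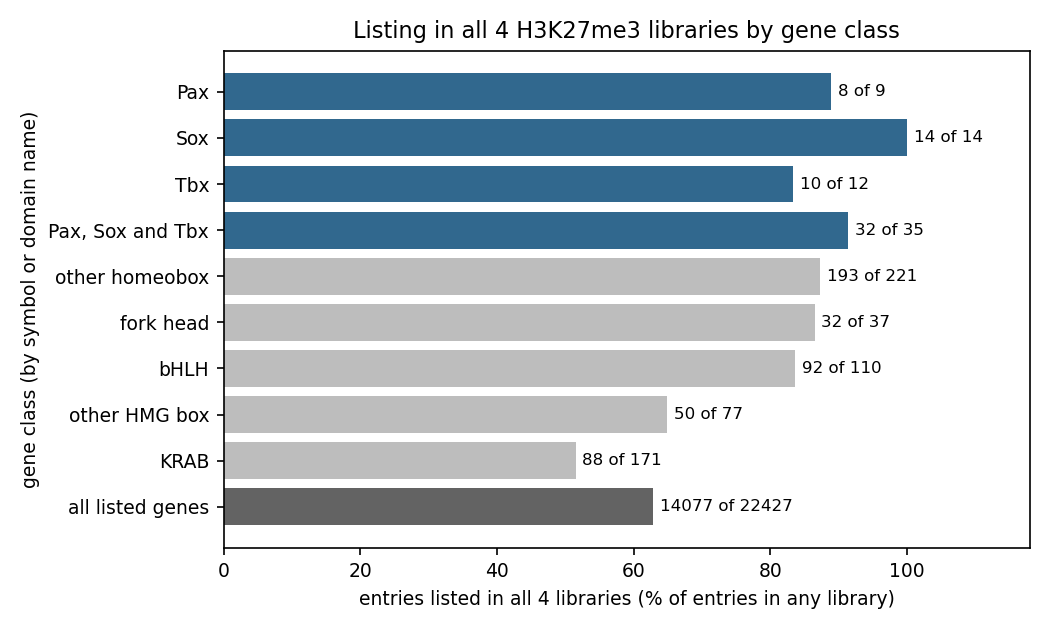
Bars give the percentage of entries in any library that were listed in all 4 H3K27me3 libraries, for the 3 families, their sum, other domain classes and all listed genes, with counts at the bar ends. Sox reaches 14 of 14 and the 3 families together 32 of 35, against 14077 of 22427 for all genes.

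Genes next to Tbx22 and Pax4 did not show the pattern of these members. Gene order was taken from the RefSeq annotation of assembly GRCr8, which differs from the build rn6 named for the lists. At Tbx22, the adjacent Itm2a was listed in both α-KG and both control libraries, and Chmp1b2 on the other side in α-KG 1, α-KG 2 and control 1. Of the 3 neighbours on each side, 4 were in all 4 libraries, and none shared the Tbx22 pattern. Beside Tbx10, Acy3 was also listed in α-KG 2 alone, whereas Nudt8 was in all 4. How peaks were assigned to genes is not given in the sources used here, so whether Tbx10 and Acy3 share a peak was not tested. Beside Pax4, Fscn3 was listed in α-KG 2 alone and Snd1 in α-KG 2, control 1 and control 2.

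**Figure D4:**
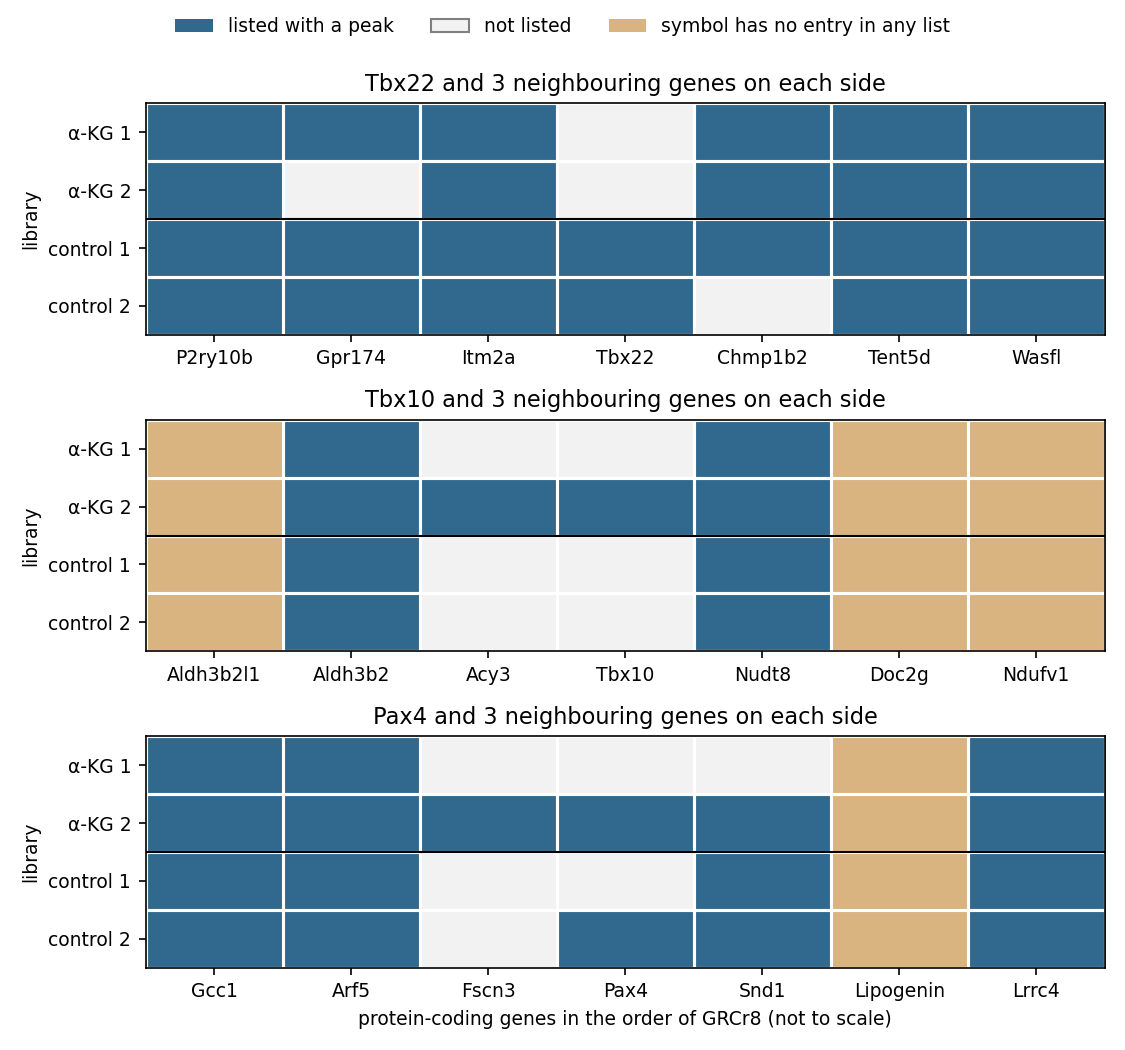
Each panel gives 1 varying gene with 3 protein-coding neighbours on each side (columns, in the order of GRCr8, not to scale) against the α-KG and control libraries (rows); tan marks symbols with no entry found. Tbx22 is the only gene of its panel absent from both α-KG rows, Tbx10 and Acy3 are filled in α-KG 2 alone, and Pax4 is filled in α-KG 2 and control 2.

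Around the 32 members in all 4 libraries, 56 of the 64 adjacent genes had an entry, and 41 of the 56 (73.2%) were in all 4. Around all genes in all 4 libraries that could be placed, 70.5% of 15130 adjacent genes with an entry were. Tbx2 lies next to Tbx4 and Tbx5 next to Tbx3 in this order, so those 2 pairs may share peaks and are not independent listings. These 4 members are also among the 41 adjacent genes in all 4 libraries, which their selection fixes. The share around all genes counts such pairs in the same way.

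T-box relatives outside the naming rule were listed without exception where they had an entry. T (Brachyury, of the mesoderm), Eomes (mesoderm and lymphocytes), Tbr1 (cortical neurons) and Mga (a Max partner) were each in α-KG 1, α-KG 2, control 1 and control 2. Together with the 12 Tbx members, 14 of 16 T-box entries were thus in all 4 (87.5%, against 62.8% of all listed genes).

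Most partner factors that work with these genes in the heart were listed throughout. Of 14 cardiac partner factors, 12 were in all 4 libraries (85.7%, against 62.8% of all listed genes). By library, 14 were in α-KG 1, 14 in α-KG 2, 12 in control 1 and 13 in control 2. Hand2, a ventricular bHLH factor, was missing from control 1, and the myocyte enhancer factor gene Mef2c was listed in α-KG 1 and α-KG 2 but in no control. None of the 12 that both controls listed was lost, against 3.22% of all genes, and Mef2c was 1 of the 14 in both α-KG libraries, against 4.48% of all genes.

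Of 7 cardiac T-box target genes, only Bmp10, Hcn4 and Cacna1g were in all 4 libraries (42.9%, against 62.8% of all listed genes). Nppa, the natriuretic peptide A gene, and Gja5, the gap junction gene for connexin 40 of atria and conduction fibres, were listed in control 2 alone. Tnni3, cardiac troponin I, was listed in α-KG 1 alone, and Gja1, connexin 43 of the working myocardium, in every library but control 2. None of the 3 targets in both controls was lost, against 3.22% of all genes, and none of the 4 in both α-KG libraries was gained, against 4.48%. Lists this short would hold few such genes at those shares.

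The 13 targets and partners of Sox and Pax factors were in all 4 libraries, against 62.8% of all listed genes. They include the cartilage genes Col2a1 and Acan (regulated by Sox9), the muscle genes Myf5 and Myod1 (downstream of Pax3 and Pax7) and the pluripotency genes Pou5f1 and Nanog (partners of Sox2). A list of 11 HMG-box genes outside Sox was also chosen, which is not the whole class given above. Of its 13 entries, 11 were in all 4 (84.6%). Ssrp1, a subunit of a histone chaperone, was in α-KG 2 alone, and 1 of the 2 entries for Hmgb3 was missing from α-KG 1. None of the 12 in both controls was lost, against 3.22% of all genes, and none of the 11 in both α-KG libraries was gained, against 4.48%, shares at which so few entries need not include any.

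RefSeq names 41 rat genes that match the naming rule, and 6 of them, Sox1, Sox3, Sox4, Sox15, Sox21 and Tbx6, had no entry under a current or older symbol in the lists used here. They are not analysed here. Among entries without a gene symbol, 0 had a T-box domain, 0 a paired domain and 32 an HMG box, so Sox genes may stand among the unnamed entries.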

How the data were processed

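The authors deposited, for each of the 4 H3K27me3 libraries, a list of Ensembl gene IDs, gene symbols and protein domain names with no header and no number per gene. CASAVA, BWA, MACS2 and build rn6 are named without roles or versions, per the submitters' processing notes. For peak thresholds, for the role of the 2 input samples (not used here) and for how peaks were tied to genes, no step is given in the sources used here. Depth is unknown, so no interval was computed. Entries without a symbol made up 22.7% of the 22427.

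Listings were joined by gene ID in Python 3.11.15 (pandas 2.3.3; scipy 1.17.1 for the permutation test). Lost means listed in both controls and in no α-KG library, and gained the reverse. The members, gene lists and tests were chosen with earlier results of these data known. All members not in all 4 libraries are named, as are the heart genes and the members of the partner and target lists that were lost, gained or in 1 library. Names and gene order came from RefSeq (GRCr8), with older symbols used where a current one had no entry. The counting steps were tested on simulated data. Same-numbered libraries are not said to be paired. Other settings tried were a replicate block, leaving out each library in turn, counting by symbol and adding relatives outside the naming rule. Counting by symbol could not change a result for the members, since each has 1 entry. A gene of the cardiac target list is not reported here and is not counted.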

Additional observations from a re-analysis of the deposited data

How the results depend on the processing

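The 32 members in all 4 libraries stayed 32 among the remaining 3 libraries whichever was left out, where 64.5% to 67.7% of all genes were. They were 78% of the 41 RefSeq genes that match the naming rule, 6 of which had no entry. Among entries with a symbol the share of all genes in all 4 was 63.1%. That share leaves out genes without an entry, so it is not the background for the 78%. The difference in members per library (α-KG minus control) ran from -1.5 without α-KG 2 to 0.5 without α-KG 1, a reversal, and was 0 without control 2; the cause was not tested. With a replicate block it was -0.5, which equals the main difference by arithmetic and so is no check of it. Tbx22 was the 1 lost member under every alternative run, which its pattern fixes, at 2.94% to 3.03% of members without 1 library against 5.24% to 8.55% of all genes. Gained members numbered 0 to 1 without 1 library, the 1 being Tbx10 without α-KG 1, where 11.9% of all genes in α-KG 2 were gained. With a replicate block, replicate number 2 alone also gave 1 gained member, and both numbers together gave 0. The planned share of CpG-rich promoters was not run, since too few members have a window. Listings carry no depth, so weak peaks near detection cannot be set apart.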
